A study of Mus musculus with 21 samples.

Results

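The myosin chain genes of the heart examined here were Myh6, Myh7, and Myh7b, which encode heavy chains, and Myl2, Myl3, Myl4, and Myl7, which encode light chains. These 7 genes were chosen by symbol among the 55450 genes of a table of RNA-sequencing counts, and all 7 were among the 17309 genes with enough counts to be tested. RNA came from the left ventricle of 21 male mice of the 129S6/SvEv strain. On control diet (CD) were 5 wild-type littermates, called WT-CD, and 7 R403Q animals, called R403Q-CD. The diet with empagliflozin (EMPA, 0.15 mg per g) was given to 5 wild-type animals, WT-EMPA, and to 4 R403Q animals, R403Q-EMPA. The labels give the R403Q genotype as Myh6+/R404Q, so that 1 of the copies of Myh6 carried the change. Empagliflozin inhibits a sodium–glucose cotransporter. Diets began at 9 to 10 weeks of age and the hearts for RNA were taken at 12 weeks, after 2 weeks on the diets by the study's methods; the 16 weeks of treatment in the labels are the length of the whole trial. By the cage given in each mouse's labels, the CD mice came from 4 cages, all with both genotypes, and the EMPA mice from 3 other cages, 2 of them with both genotypes; diet and cage therefore cannot be told apart.

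Myosin is the motor of the sarcomere. Each heavy chain carries a head that splits ATP and pulls on actin, and a lever arm wrapped by an essential and a regulatory light chain. Myh6 encodes the α heavy chain, the fast form that fills the adult mouse ventricle, and Myh7 the slower β chain, the form of the fetal mouse ventricle, which is well known for returning in stressed adult hearts. Myh7b encodes a related heavy chain made in small amounts. Myl2 is the regulatory and Myl3 the essential light chain of the ventricle, whereas Myl7 and Myl4 hold these roles in the atrium, and Myl4 also in the fetal heart.

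Myh6 (ENSMUSG00000040752, chr14:54941921-54966927) and Myh7 (ENSMUSG00000053093, chr14:54970684-54994626) lie side by side on the reverse strand of GRCm38. Myh7b (ENSMUSG00000074652) is at chr2:155611212-155634307 on the forward strand, Myl2 (ENSMUSG00000013936) at chr5:122100951-122113472, forward, and Myl3 (ENSMUSG00000059741) at chr9:110741861-110769798, forward. Both atrial light chains are on chromosome 11, Myl4 (ENSMUSG00000061086) at chr11:104550663-104595753, forward, and Myl7 (ENSMUSG00000020469) at chr11:5896637-5898782, reverse. The coding sequences of Myh6 and Myh7 were 91.7% identical over 5803 aligned bases. Myl3 and Myl4 were 78.1% identical and Myl2 and Myl7 64.3%. The 51 reference coding bases around the affected codon are shown because they mark both the site of the allele and how alike the heavy chains are, with the codon itself in capitals:
Myh6: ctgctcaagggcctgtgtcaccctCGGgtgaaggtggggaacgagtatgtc
Myh7: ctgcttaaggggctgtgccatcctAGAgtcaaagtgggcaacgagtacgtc
Of these 51 bases, 41 were the same. The counts add the reads of both Myh6 alleles and do not separate the mutant from the normal transcript.

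Each cardiac heavy chain gene also carries a microRNA in an intron, the family known to link heavy chain genes with one another. Their mature sequences in RefSeq (GRCm38.p6) are printed because they group by the seed, bases 2 to 8, which is in capitals:
miR-208a-3p, in Myh6: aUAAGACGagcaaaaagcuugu
miR-208b-3p, in Myh7: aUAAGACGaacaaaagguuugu
miR-499-5p, in Myh7b: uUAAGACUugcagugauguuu
The miR-208a and miR-208b seeds were the same and that of miR-499 ended in another base. Mature microRNAs are not captured by libraries of polyadenylated RNA and were not measured. The RefSeq promoter of Myh6 and 1 of 2 of Myh7, 250 bases before to 50 after a start site (GRCm38.p6, reverse strand), are shown because these were the members that passed a test below; capitals mark CATTCC on either strand, the MCAT motif bound by TEAD factors:
Myh6, chr14:54966558-54966857: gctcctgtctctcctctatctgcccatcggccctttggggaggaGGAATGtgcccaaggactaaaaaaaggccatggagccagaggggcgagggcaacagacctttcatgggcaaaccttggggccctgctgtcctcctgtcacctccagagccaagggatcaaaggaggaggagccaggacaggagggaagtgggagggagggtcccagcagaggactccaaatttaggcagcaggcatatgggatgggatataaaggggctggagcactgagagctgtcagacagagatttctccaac
Myh7, chr14:54994577-54994876: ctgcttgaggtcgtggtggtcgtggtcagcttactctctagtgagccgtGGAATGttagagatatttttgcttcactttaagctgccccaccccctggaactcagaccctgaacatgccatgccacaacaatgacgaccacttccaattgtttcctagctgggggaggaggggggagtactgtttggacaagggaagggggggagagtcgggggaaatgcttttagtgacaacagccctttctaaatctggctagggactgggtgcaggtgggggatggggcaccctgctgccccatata
Each held 1 match, and 14.7% of 32851 mouse promoters of the same length held at least 1. The Myh7 promoter shown is that at the annotated gene start; the other, chr14:54994500-54994799, whose start site lies 77 bases further in, held 0. Among members that were not called, Myl3 (2 matches) and Myl7 (1 match) also held it. A match is a string of letters and not a binding site.

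The libraries held from 23491535 to 43539684 counts, and 3 counts, the least taken as a signal, equalled 0.0689 to 0.128 CPM, the counts scaled to a common library size of 1000000. This floor covers counting error only. The table holds no mitochondrial genes, and the myosin genes took from 3.31% to 6.79% of its counts. The lowest share belonged to R403Q-CD mouse 2, which stood apart: its Nppa, the gene of atrial natriuretic peptide, stood at 10988 CPM against 882 to 3824 CPM in the other R403Q-CD mice, and it had the highest levels of the atrial genes Sln (88.4 CPM), Mybphl (29.3 CPM), Dkk3 (114 CPM), Myl4, and Myl7. Not every atrial marker was raised: without Nppa and these genes, the atrial list summed to more in WT-CD mouse 3 than in R403Q-CD mouse 2. The calls of members that rest on this mouse are given with and without it. The genes that define a ventricle, Myl2 and Myl3, were among the most abundant transcripts of every mouse. Of the atrial list, Bmp10, a hormone gene, reached at most 0.111 CPM in any mouse, and the others are described with Myl4 and Myl7.

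Among these nuclear genes Myh6 had the most counts in every mouse, with 38649 ± 7664 CPM (SD, n = 21; TMM-scaled counts). Per kilobase of the principal transcript, however, Myl2 was the more abundant, at 11753 ± 2003 CPM per kilobase against 6322 ± 1254 for Myh6 and 4947 ± 638 for Myl3 (SD, n = 21). Myl2 exceeded Myh6 in 20 of 21 mice, with a median ratio of 1.83, and Myh6 exceeded Myl3 in 19 of 21, with a median ratio of 1.27, so that both neighbours overlapped between mice. A wide gap followed. Myh7 reached 516 ± 161 CPM per kilobase, and Myl3 exceeded it by 4.57 to 16.0 times. Myh7b, at 23.96 ± 6.86 CPM per kilobase, was below Myh7 in all 21 mice. The atrial chains came last by median, at 7.53 CPM per kilobase for Myl4 and 4.45 for Myl7, but in R403Q-CD mouse 2 Myl4 (359 CPM per kilobase) stood above Myh7 (305). The order of Myh7b, Myl4, and Myl7 did not hold in every mouse: Myh7b was above Myl4 in 14 of 21 mice and Myl4 above Myl7 in 13 of 21. These levels rest on transcript lengths of the annotation and on reads that aligned to 1 place; 11.4% of the 100-base windows of Myh6 are found unchanged in Myh7.

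**Figure D1:**
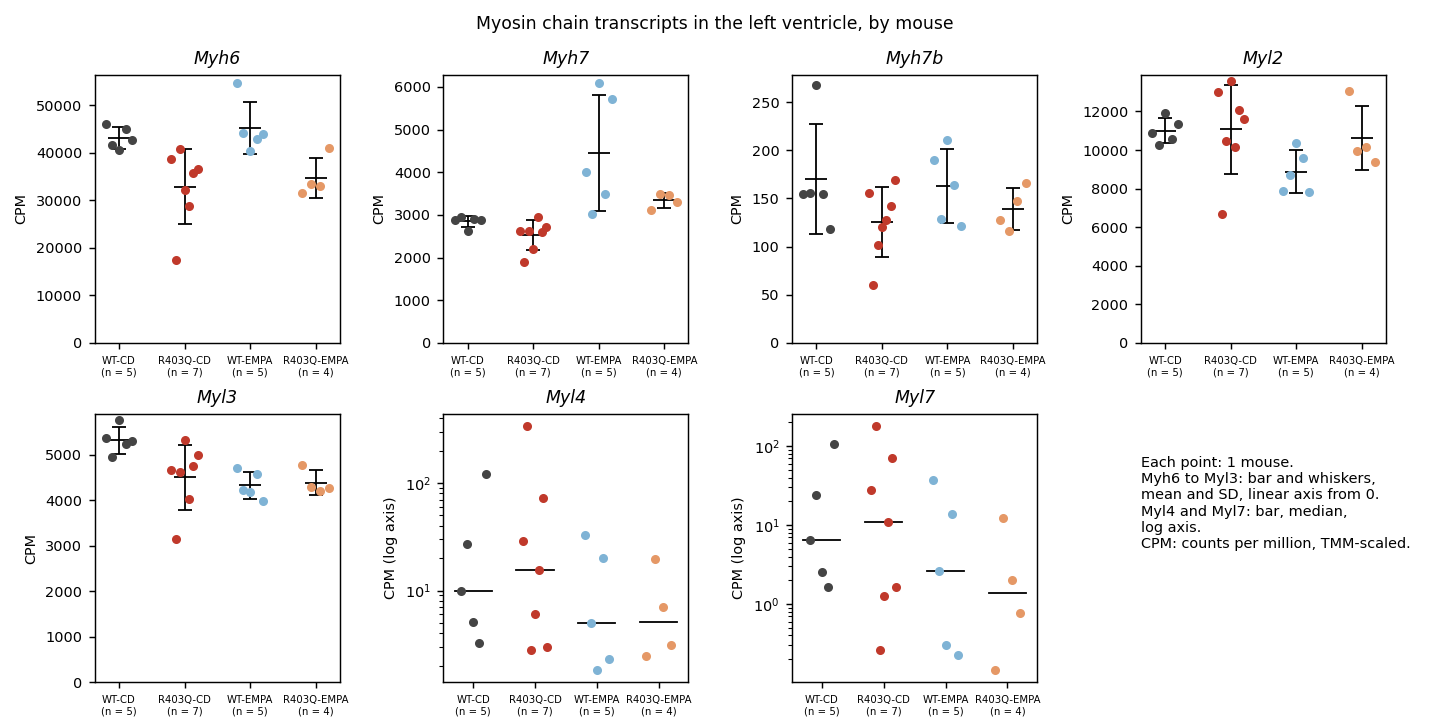
Level of each myosin chain transcript in CPM (vertical axes) in the 21 mice by group; points are mice, bars and whiskers are mean and SD on linear axes from 0 for Myh6, Myh7, Myh7b, Myl2, and Myl3, and bars are medians on log axes for Myl4 and Myl7. The EMPA mice lie above the CD mice for Myh7, R403Q-CD mouse 2 is the low point of Myh6 at 17517 CPM, and Myl4 and Myl7 spread over orders of magnitude within each group.

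The first question was what the R403Q allele did to the myosin transcripts, its own gene included. Myh6 was lower in R403Q hearts on both diets. WT-CD mice had 46180, 41643, 40598, 44991, and 42681 CPM of Myh6, and the R403Q-CD mice had a lowest level of 17517, a median of 35843, and a highest of 40779 CPM. On EMPA, the wild-type mice had 54644, 44131, 40404, 42939, and 43883 CPM and the R403Q mice 31534, 33556, 33069, and 40961 CPM. In each pair of groups the R403Q mice were thus mostly the lower, with an overlap made by R403Q-CD mouse 3 (40779 CPM) and R403Q-EMPA mouse 4 (40961 CPM).

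Averaged over both diets, Myh6 fell by 0.39 on the log2 scale in R403Q hearts (SE 0.119, adjusted p = 0.0419, edgeR's quasi-likelihood test with Benjamini–Hochberg adjustment over all genes). It was 1 of 7 members called, where 10.9% of all genes were called in this comparison (median of the members -0.30, of all genes 0.01). DESeq2's Wald test called 2 members, Myh6 and Myh7, and limma 0. The difference was -0.39 on CD (SE 0.155, adjusted p = 0.158) and -0.38 on EMPA (SE 0.180, adjusted p = 0.333), neither past the threshold by itself. Myh6 was lower in R403Q mice in 6 of 6 cages with both genotypes, by log2 differences between -1.23 and -0.25, the former in the cage of R403Q-CD mouse 2. The call was close to the threshold: it held in 7 of 21 fits that each left out 1 mouse, among them the fit without R403Q-CD mouse 2, and was lost in the other 14 (adjusted p up to 0.092), with log2 values between -0.43 and -0.34 in all 21. In bulk tissue, fewer cardiomyocytes and less Myh6 per cardiomyocyte cannot be told apart. Genotype moved some markers of other cells: all 4 macrophage markers were called higher, with a summed level of 65.6 to 89.8 CPM over both wild-type groups and 86.0 to 151 over both R403Q groups, and 2 of 5 fibroblast markers (Dcn and Lum). Of 6 cardiomyocyte markers, 0 were called in edgeR, DESeq2, and limma (1 at an unadjusted p under 0.05), and their sum ran from 43997 to 51139 CPM in wild-type and from 38070 to 51135 in R403Q mice. The part of these cells in the Myh6 difference was not tested.

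For Myh7, the chain known for its return in stressed hearts, no increase by genotype was called. It had 2884, 2950, 2625, 2895, and 2893 CPM in WT-CD and a lowest level of 1902, a median of 2616, and a highest of 2959 CPM in R403Q-CD (log2 difference -0.18, SE 0.141, adjusted p = 0.488, edgeR). In R403Q-EMPA against WT-EMPA hearts the difference was -0.415 (SE 0.163, adjusted p = 0.243), and averaged over both diets it was -0.30 (SE 0.108, adjusted p = 0.0759). This average passed with DESeq2's Wald test (adjusted p = 0.0341) and in the edgeR fit without WT-EMPA mouse 2 (adjusted p = 0.0317). Myh7 was lower in R403Q mice in 6 of 6 cages with both genotypes, by -0.75 to -0.07.

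The remaining chains gave no call by genotype. Myh7b differed by -0.44 between R403Q-CD and WT-CD (SE 0.211, adjusted p = 0.238) and by -0.22 between R403Q-EMPA and WT-EMPA (SE 0.245, adjusted p = 0.694), and Myl3 by -0.24 (SE 0.100, adjusted p = 0.178) and 0.02 (SE 0.115, adjusted p = 0.955). Myl2 differed by 0.01 on CD (SE 0.138, adjusted p = 0.974) and by 0.26 on EMPA (SE 0.158, adjusted p = 0.454). In all, 0 of 7 members were called in R403Q-CD against WT-CD, with 1.44% of all genes called, and 0 of 7 in R403Q-EMPA against WT-EMPA, with 0.0578% called. At an unadjusted p under 0.05 these counts were 3 (Myh6, Myh7b, and Myl3) and 2 (Myh6 and Myh7), and DESeq2 and limma called 0 in both. Here and elsewhere the share of all genes at an unadjusted p under 0.05 is not given, so such counts measure no enrichment. R403Q-EMPA against WT-CD, which differ in both genotype and diet, also gave 0 calls of 7 (0.971% of all genes called; 1 member at an unadjusted p under 0.05 and 0 with DESeq2 and limma). There all 4 R403Q-EMPA mice were above all WT-CD mice for Myh7 and below them for Myl3, as 7.38% of all genes separated these groups in either direction. No member separated the genotypes without overlap on the same diet or over all mice, as 2.12% of genes did on CD, 6.77% on EMPA, and 0.266% over all R403Q against all WT mice.

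**Figure D2:**
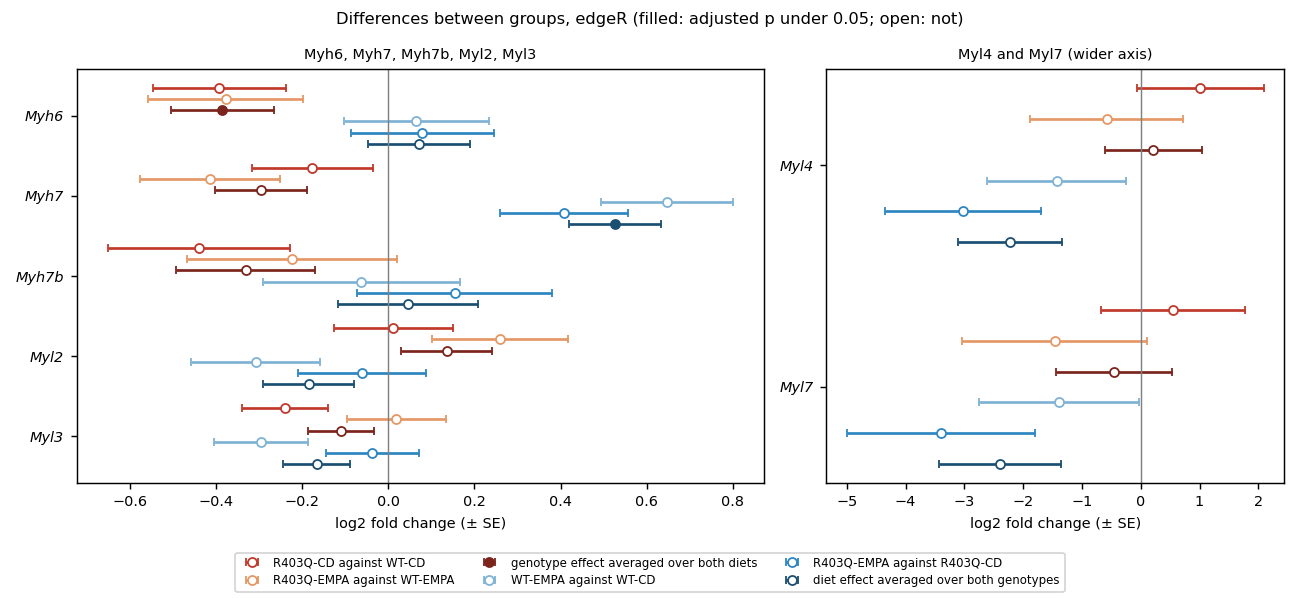
Log2 fold change (horizontal axis, bars ± SE) of each member in the comparisons by genotype (red) and by diet (blue), from edgeR; filled points had an adjusted p under 0.05. The filled points are Myh6 by genotype (-0.39) and Myh7 by diet (0.53), and the axis for Myl4 and Myl7 is wider.

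The ratio of light to heavy chain transcripts was compared next, since it does not depend on the scaling between libraries. In reads per kilobase, Myl2 per Myh6 averaged 1.76 ± 0.170 in wild-type and 2.36 ± 0.353 in R403Q mice on CD (SD, n = 5 and 7), and 1.38 ± 0.295 and 2.14 ± 0.527 on EMPA (SD, n = 5 and 4). By mouse it was 1.62, 1.70, 2.02, 1.62, and 1.83 in WT-CD and between 1.77 and 2.90 in R403Q-CD (median 2.31), and 0.989, 1.36, 1.76, 1.53, and 1.23 in WT-EMPA against 2.85, 2.04, 2.11, and 1.57 in R403Q-EMPA. The groups overlapped on both diets. The ratio was higher in R403Q mice in 6 of 6 cages with both genotypes, by 0.34 to 0.65 on the log2 scale, R403Q-CD mouse 2 included, in which both transcripts were low. In R403Q-CD against WT-CD the log2 ratio differed by 0.42 (exact two-sided permutation p = 0.00884, adjusted p = 0.127 over 16 tests of ratios), and in R403Q-EMPA against WT-EMPA by 0.63 (exact permutation p = 0.0317, adjusted p = 0.159). Neither passed after adjustment; without R403Q-CD mouse 3 the adjusted exact permutation p of the former was 0.0346. Permuted within cages on CD, the exact p was 0.0139, the smallest that 72 arrangements allow (adjusted p = 0.0556 over the 4 ratios). By diet the log2 ratio differed by -0.37 in WT-EMPA against WT-CD (exact permutation p = 0.0397, adjusted p = 0.159) and by -0.16 in R403Q-EMPA against R403Q-CD (exact permutation p = 0.382, adjusted p = 0.660), and neither passed.

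The second question was how EMPA mice differed from CD mice, and here Myh7 was the member called. WT-EMPA mice had 4006, 3018, 6082, 3487, and 5707 CPM of Myh7 and R403Q-EMPA mice 3109, 3483, 3475, and 3313 CPM. Each of these 9 levels was above each of the 12 levels on CD, of which the highest was 2959 CPM. Among all 17309 genes, 0.0693% (12 genes) separated the diets without overlap. Averaged over both genotypes, Myh7 rose by 0.53 on the log2 scale (SE 0.107, adjusted p = 0.0139, edgeR), 1 of 7 members called where 2.91% of all genes were called (median of the members -0.17, of all genes -0.01). The increase was called in each of 21 fits that left out 1 mouse (adjusted p between 0.006 and 0.04) and with DESeq2 and limma. In the 12 mice with less than 1 CPM of Sln, an atrial gene described below, it was 0.60 and lost its call (adjusted p = 0.0656, 3 mice a group).

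Within each genotype the difference was 0.65 in wild-type (SE 0.153, adjusted p = 0.127) and 0.41 in R403Q hearts (SE 0.15, adjusted p = 0.256), neither past edgeR's threshold; DESeq2 called the former (adjusted p = 0.0113). These differed from each other by -0.24 (SE 0.215, unadjusted p = 0.281). Without overlap between groups, Myh7 was 1 of 7 members in R403Q-EMPA against R403Q-CD, as were 1.62% of all genes, and 1 of 2 with Myl3 in WT-EMPA against WT-CD, as were 3.45%. Scaled to library size alone, 7 of 9 EMPA mice were above all CD mice, since the highest CD mouse had 3170.3 and the lowest EMPA mouse 3015 CPM. By cage, Myh7 averaged 2492 to 2796 CPM in the 4 CD cages and 3360 to 4369 CPM in the 3 EMPA cages, and diet and cage cannot be told apart. The tests by diet take mice as independent although whole cages were on the same diet, so their p-values overstate the replication. Markers of red blood cells moved with diet too, with 3 of 3 called higher on EMPA, where 2.91% of all genes were called. Their summed level was 624.6 to 1492 CPM over the CD groups and 1073 to 2348 CPM over the EMPA groups, and their part was not tested.

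Myh7 shares 13.3% of its exon bases with antisense genes, among them Mhrt (484 bases) and Gm31251 (523 bases). The counting is described as of the same strand, but the library kit is not stated to mark strand, so reads of Myh7 and of these antisense transcripts cannot be told apart there. Per mouse, 1109 to 2265 counts were assigned to Mhrt and 974 to 1970 to Gm31251, against 70213 to 203399 to Myh7. Their part in the Myh7 difference was not tested.

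As a share of both heavy chains, counted per kilobase, Myh7 averaged 6.08 ± 0.285% in wild-type and 7.25 ± 1.49% in R403Q mice on CD (SD, n = 5 and 7), and 8.91 ± 2.98% and 8.69 ± 0.921% on EMPA (SD, n = 5 and 4). Myh6 was the major heavy chain transcript in all 21 mice, as the largest share of Myh7 was 12.9%, in WT-EMPA mouse 3. In R403Q-CD the highest shares, 9.63% in mouse 2 and 9.13% in mouse 5, came from the mice with the lowest Myh6 (17517 and 28886 CPM), while their Myh7 stood at 1902 and 2959 CPM. The log2 ratio of Myh7 to Myh6 differed by 0.54 in WT-EMPA against WT-CD (exact permutation p = 0.0159, adjusted p = 0.127), by 0.30 in R403Q-EMPA against R403Q-CD (exact permutation p = 0.0909, adjusted p = 0.291), by 0.25 in R403Q-CD against WT-CD (exact permutation p = 0.115, adjusted p = 0.306), and by 0.02 in R403Q-EMPA against WT-EMPA (exact permutation p = 0.976). None passed. With groups of this size the smallest p possible was 0.00126 for R403Q-CD against WT-CD and 0.00794 for both comparisons with WT-EMPA.

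**Figure D3:**
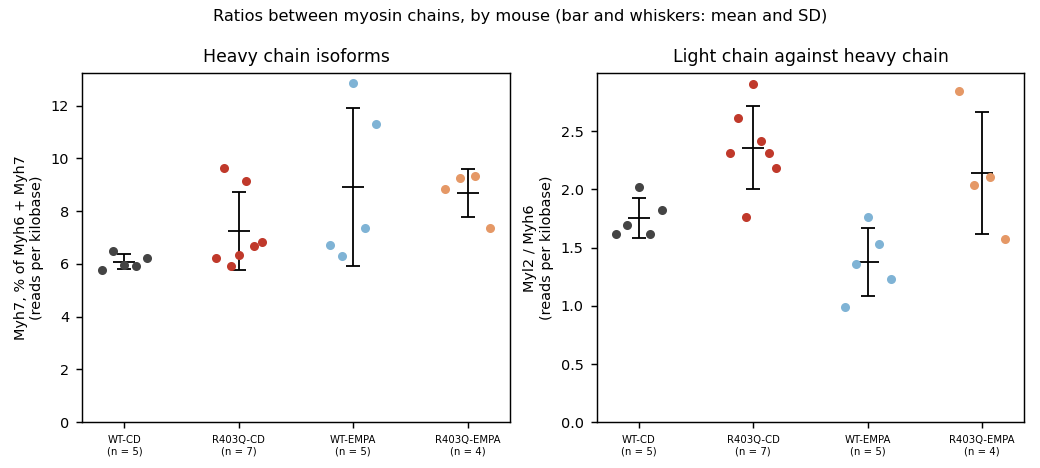
Myh7 as a percentage of Myh6 and Myh7 together (left axis) and Myl2 per Myh6 (right axis), both in reads per kilobase, by group; points are mice, bars and whiskers mean and SD. The Myh7 share is narrow in WT-CD, from 5.77% to 6.499%, and wide in WT-EMPA, from 6.29% to 12.9%, and Myl2 per Myh6 is higher in R403Q than in wild-type mice on either diet, with overlap.

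The ventricular light chains were lower in wild-type mice on EMPA, without a call. Myl3 had 5357, 4939, 5767, 5230.3, and 5298 CPM in WT-CD and 4702, 4217, 4177, 4577, and 3986 CPM in WT-EMPA. All 5 WT-EMPA mice were below all WT-CD mice, and the log2 difference was -0.30 (SE 0.109, adjusted p = 0.311, edgeR). R403Q-EMPA mice had 4784, 4288, 4212, and 4270.0 CPM, within the range of R403Q-CD mice (3149 to 5314 CPM), with a difference of -0.04 (SE 0.108, adjusted p = 0.913). Averaged over both genotypes Myl3 differed by -0.17 (SE 0.0768, adjusted p = 0.227), and without R403Q-CD mouse 2 it was called, at -0.20 (adjusted p = 0.0348, edgeR). Myl2 had 10874, 10282, 11916, 10568, and 11331 CPM in WT-CD and 7858, 8730, 10369, 9584, and 7848 CPM in WT-EMPA (log2 difference -0.31, SE 0.149, adjusted p = 0.456). In R403Q hearts the difference in Myl2 between diets was -0.06 (SE 0.148, adjusted p = 0.894), and the R403Q-EMPA mice had 13052, 9942, 10133, and 9362 CPM.

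Neither Myh6 nor Myh7b was called by diet. Averaged over both genotypes the diet difference was 0.07 for Myh6 (SE 0.118, adjusted p = 0.784) and 0.05 for Myh7b (SE 0.162, adjusted p = 0.907). Myh7b lay between 60.5 and 268 CPM, the lowest in R403Q-CD mouse 2 and the highest in WT-CD mouse 3. By edgeR, 0 of 7 members were called in WT-EMPA against WT-CD, with 0.0289% of all genes called, and 0 of 7 in R403Q-EMPA against R403Q-CD, with 0.0116% called. At an unadjusted p under 0.05 the counts were 2 (Myh7 and Myl3) and 3 (Myh7, Myl4, and Myl7), and DESeq2 called 1 (Myh7) and 0 and limma 0 and 0. The interaction of genotype and diet gave 0 calls among the members (0 at an unadjusted p under 0.05, and 0 with DESeq2 and limma) and 0% among all genes.

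The atrial light chains varied widely within every group. Myl4 had 9.83, 26.8, 5.125, 3.26, and 121 CPM in WT-CD, from 2.80 to 339 CPM in R403Q-CD (median 15.5), 32.8, 5.002, 1.82, 20.1, and 2.30 CPM in WT-EMPA, and 2.48, 19.8, 7.10, and 3.14 CPM in R403Q-EMPA. Myl7 followed the same mice, with 6.48, 24.1, 2.545, 1.66, and 108 CPM in WT-CD, from 0.262 to 180.2 CPM in R403Q-CD (median 11.1), 37.8, 2.63, 0.299, 13.9, and 0.224 CPM in WT-EMPA, and 0.146, 12.3, 2.02, and 0.764 CPM in R403Q-EMPA. The highest levels of both were in R403Q-CD mouse 2, WT-CD mouse 5, and R403Q-CD mouse 6, and all groups overlapped. At the low end the values rest on few reads, such as 4 counts of Myl7 in R403Q-EMPA mouse 1.

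No difference in the atrial chains passed. Averaged over both genotypes, Myl4 differed by -2.22 between EMPA and CD (SE 0.881, adjusted p = 0.158) and Myl7 by -2.40 (SE 1.04, adjusted p = 0.199), and in R403Q-EMPA against R403Q-CD the values were -3.02 (SE 1.33, adjusted p = 0.324) and -3.40 (SE 1.59, adjusted p = 0.357). Fits that left out 1 mouse moved the latter values between -3.96 and -1.39 for Myl4 and between -5.32 and -2.23 for Myl7. In R403Q-CD against WT-CD the differences were 1.01 for Myl4 (SE 1.08, adjusted p = 0.617) and 0.55 for Myl7 (SE 1.23, adjusted p = 0.834), and without R403Q-CD mouse 2 they turned to -0.62 for both. The ratio of Myl7 to Myl2 and that of Myl4 to Myl3 gave adjusted exact permutation p-values of 0.547 and above in all 8 comparisons. Myl7 was at most 3.92% of Myl2 and Myl7 together per kilobase, and Myl4 at most 9.66% of Myl3 and Myl4, both in R403Q-CD mouse 2, with medians of 0.0453% and 0.167% over all mice.

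Myl4 and Myl7 varied together across mice (Pearson r = 0.96 and Spearman rho = 0.97 of log2 CPM, n = 21, permutation p = 1e-05, the smallest that 100000 permutations can give, adjusted p = 2e-05 over 4 relations). The Myl7 level followed that of Sln, the gene of sarcolipin, a regulator of the calcium pump found mainly in the atrium of the mouse heart (r = 0.96, rho = 0.96, permutation p = 1e-05, adjusted p = 2e-05). Both held without the 2 mice farthest from the median, R403Q-CD mouse 2 and WT-CD mouse 5 (r = 0.96 and 0.95), when centred on group means (0.96 and 0.96), and when centred on cage means (0.95 and 0.96). Sln was at or under 1 CPM in 12 mice and between 1.89 and 88.4 CPM in the other 9. Of the 10 atrial markers beside them that were tested, 3 went with Myl7 at r of 0.77 or more, namely Sln, Dkk3 (0.78), and Mybphl (0.77). The other 7 lay between -0.31 and 0.37, with Nppa at 0.26. The atrial list without its myosin members summed to 405 to 761 CPM in WT-CD, 1049 to 11349 in R403Q-CD, 553 to 896 in WT-EMPA, and 575 to 1246 CPM in R403Q-EMPA, most of it Nppa, and 0 of 12 atrial genes were called by diet in edgeR, DESeq2, and limma (5 at an unadjusted p under 0.05; median log2 difference -0.40 against -0.01 over all genes). How much atrial tissue the samples held was not tested.

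**Figure D4:**
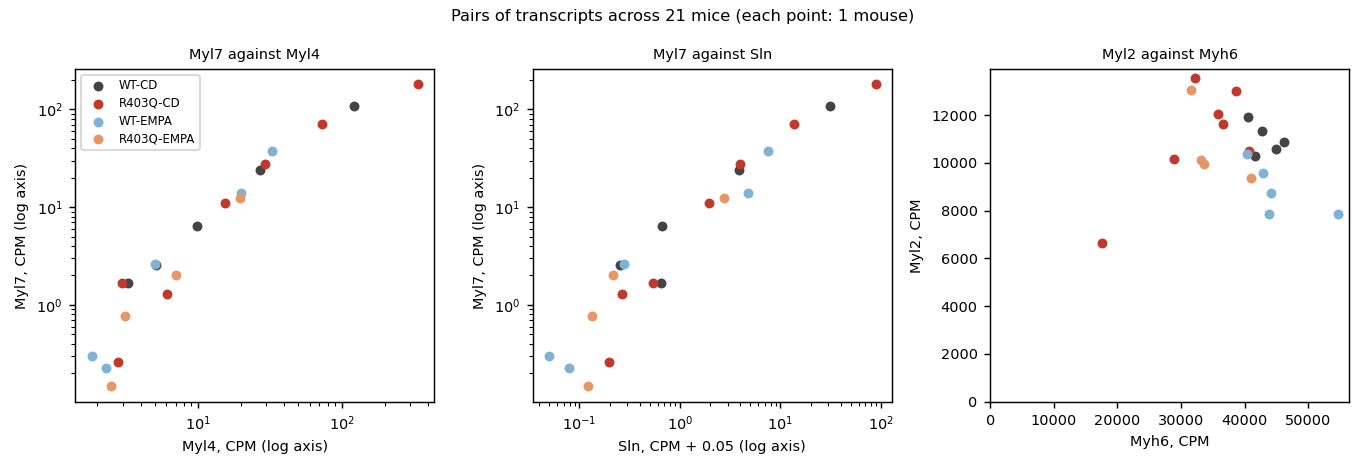
Pairs of transcripts in 21 mice, each point a mouse coloured by group: Myl7 against Myl4 and Myl7 against Sln (CPM, log axes; 0.05 added to Sln) and Myl2 against Myh6 (CPM, linear axes from 0). Myl4, Myl7, and Sln lie along lines with r of 0.96, and in the right panel R403Q-CD mouse 2 lies apart from the others at 17517 CPM of Myh6 and 6662 CPM of Myl2.

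The relations between the major chains depended on a pair of mice. Myh6 and Myh7 had r = 0.49 (permutation p = 0.036, adjusted p = 0.0481) and rho = 0.34 (adjusted p = 0.179) over 21 mice, and without R403Q-CD mice 2 and 5 r was 0.29 (permutation p = 0.229), so that the relation rested on these mice. Centred on group means r was 0.27. Myh6 and Myl2 had r = 0.13 (permutation p = 0.572) and rho = -0.27 (permutation p = 0.237), and without the same 2 mice r turned to -0.65 (adjusted permutation p = 0.00395). That value was not centred on group means, so differences between groups enter it. With all 21 mice, R403Q-CD mouse 2 included, r after centring on group means was 0.50. Scaled to library size alone, r was 0.39 for Myh6 and Myh7 and -0.06 for Myh6 and Myl2.

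Among 17281 genes, those most like each member across the 21 mice by Pearson's r of log2 CPM were the following. Myh6 was followed by Fgf13 (r = 0.98), a regulator of sodium channels, Calcoco1 (0.97), and Fyco1 (0.96), an adaptor of vesicle transport. Myh7 had its closest genes further off, with Srebf1 (0.87), which drives fatty acid synthesis, Agpat3 (0.83), and Saraf (0.83), and these fell to 0.60, 0.53, and 0.55 after centring on group means. Myh7b was closest to Ggnbp1 (0.90) and to the antisense genes of the Myh7 locus, Gm31251 (0.90) and Mhrt (0.86), although it lies on another chromosome. Myl2 was closest to the respiratory chain genes Cox5b (0.95) and Ndufb9 (0.94) and to Gm16418 (0.94). Myl3 was closest to Psme1 (0.95), Fitm1 (0.95), and Mdh2 (0.93), the last an enzyme of the citric acid cycle. Myl4 was closest to Sln (0.97), Hamp (0.86), and Mybphl (0.85), and Myl7 to Sln (0.96), Emid1 (0.83), and Hamp (0.83). All points share their libraries, so that these values describe the 21 mice only.

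The genes that modify, fold, and bind myosin were examined as a list of 15, of which 14 were tested. By genotype averaged over both diets, 3 were called lower and 1 higher (median log2 difference -0.08 against 0.01 over all genes), where 10.9% of all genes were called. On either diet alone edgeR called 0 of 14, with 5 at an unadjusted p under 0.05 on CD (2 with DESeq2 and 1 with limma) and 6 on EMPA (2 with DESeq2 and 0 with limma). Mylk3, the cardiac kinase of Myl2, fell by 0.39 (SE 0.0914, adjusted p = 0.0134, edgeR), and averaged 780.5 ± 90.1 CPM in wild-type and 657 ± 146 CPM in R403Q mice on CD (SD, n = 5 and 7). The related kinase Mylk4 fell further, by 1.26 (SE 0.287, adjusted p = 0.0113), with 339 ± 38.0 against 131 ± 69.6 CPM on CD (SD, n = 5 and 7) and 309 ± 66.4 against 141 ± 19.0 CPM on EMPA (SD, n = 5 and 4). Its lowest level, 11.97 CPM, was in R403Q-CD mouse 2, and without this mouse the difference was -1.16 (SE 0.149, adjusted p = 0.000132). On each diet the highest R403Q mouse, 208 CPM on CD and 165 CPM on EMPA, was below the lowest wild-type mouse, 295 and 230.5 CPM, as was so in either direction for 2.12% of all genes on CD and 6.77% on EMPA. Within a diet Mylk4 was not called, at -1.38 on CD (SE 0.367, adjusted p = 0.0565) and -1.13 on EMPA (SE 0.435, adjusted p = 0.233, edgeR). Unc45b, a chaperone that folds the myosin head, fell by 0.23 (SE 0.0573, adjusted p = 0.0181), and Mybpc2, the fast skeletal myosin binding protein C, rose by 0.62 (SE 0.166, adjusted p = 0.0224). By diet, 1 of 14 was called where 2.91% of all genes were, Ppp1r12b, a myosin-binding subunit of the phosphatase, which rose by 0.26 on EMPA (SE 0.07, adjusted p = 0.0462).

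Of 18 transcription regulators of cardiac myosin genes, 5 were called lower and 0 higher in R403Q hearts averaged over both diets (median log2 difference -0.12 against 0.01 over all genes), where 10.9% of all genes were called. On either diet alone edgeR called 0 of 18, with 5 at an unadjusted p under 0.05 on CD (3 with DESeq2 and 0 with limma) and 4 on EMPA (0 with DESeq2 and limma). Tead1, which encodes a TEAD factor, fell by 0.32 (SE 0.0812, adjusted p = 0.017). Sox6, a repressor of slow myosin genes and a target of miR-499, fell by 0.28 (SE 0.0763, adjusted p = 0.0233). Myocd, a coactivator of serum response factor, fell by 0.30 (SE 0.0846, adjusted p = 0.0284), Mef2a by 0.17 (SE 0.0487, adjusted p = 0.0313), and Med13, a mediator subunit and target of miR-208a, by 0.18 (SE 0.0538, adjusted p = 0.0343). The thyroid hormone receptors, which raise Myh6 and repress Myh7, were not called, with -0.03 for Thra (SE 0.0435, adjusted p = 0.634) and -0.23 for Thrb (SE 0.0923, adjusted p = 0.108). By diet, 1 of 18 was called where 2.91% of all genes were (median 0.11 against -0.01 over all genes): Mef2d rose by 0.33 on EMPA (SE 0.0664, adjusted p = 0.0139), with 195 ± 16.8 and 243 ± 27.4 CPM in wild-type mice on CD and EMPA (SD, n = 5 and 5) and 174 ± 19.1 and 219 ± 26.1 CPM in R403Q mice (SD, n = 7 and 4).

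Further myosin chains were examined as 2 lists. Of 11 further sarcomeric chains, those of skeletal, embryonic, and eye muscle, 3 could be tested, and the list summed to 5.76 to 32.8 CPM. Myl1, a fast skeletal essential light chain, rose in R403Q hearts by 0.98 (SE 0.317, adjusted p = 0.0497), with 28.4 CPM in R403Q-CD mouse 2 and 2.41 to 7.05 CPM in WT-CD, and by 0.66 without this mouse (adjusted p = 0.0376, edgeR). It was the 1 call by genotype among the 3 tested, where 10.9% of all genes were called. Skeletal muscle markers summed to no more than 4.20 CPM in any mouse. The 8 smooth muscle and nonmuscle chains summed to 817 to 1311 CPM, with 0 called by genotype in edgeR (1 at an unadjusted p under 0.05, 1 with DESeq2 and 0 with limma) and 1 by diet, Myl12a, a nonmuscle regulatory light chain, which fell by 0.20 on EMPA (SE 0.0531, adjusted p = 0.0463). By diet, 2.91% of all genes were called.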

How the data were processed

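Polyadenylated RNA of frozen left ventricle was sequenced as read pairs. The authors aligned them to mm10 (STAR 2.6.0c) and, with featureCounts (Subread 1.6.2), assigned proper pairs that aligned once to Ensembl genes; the deposited counts are not normalized. A second deposited table holds log2 values made from the counts by the authors with the variance-stabilizing transformation of DESeq2 1.32.0, and entered 1 alternative.

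Counts of all 4 groups were fitted with edgeR 4.0.16 in R 4.3.3 (filterByExpr, minimum count 10; TMM; quasi-likelihood F test; adjusted p under 0.05). Ratios of reads per kilobase were compared by exact two-sided permutation, adjusted over 16 tests, and 4 relations by 100000 permutations. Named genes were the members, the called genes of the lists (at most 5 each by p), and the 3 genes most like each member; other names were added after their values were seen. The members and lists were chosen with earlier results of these data known. Alternatives were DESeq2 1.42.0, library size alone, no filter, limma 3.58.1, 3 or 2 groups, cage as a factor, other summaries of ratios, and leaving out mice; 1 was added after the data were seen, the fit without the 9 mice with at least 1 CPM of Sln. Sequences came from GENCODE transcripts and RefSeq of GRCm38. The scripts were tested on simulated counts.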

Additional observations from a re-analysis of the deposited data

Results flagged for a closer look

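In 9 of 44 groups of 4 to 7 mice examined for a level or a ratio, 1 mouse lay far from the others of its group by Dixon's criterion, where chance gives about 1 in 20 groups of normally distributed values. That rate does not apply to the CPM of Myl4 and Myl7, which spread over orders of magnitude. The heavy chains had 3 such values. Myh6 stood at 54644 CPM in WT-EMPA mouse 1, against 40404 to 44131 CPM in the other mice of that group. WT-CD mouse 3 had the lowest Myh7 of its group, 2625.3 CPM against 2884 to 2950 CPM, and also the highest Myh7b, 268.27 CPM against 118 to 155 CPM. Of the ventricular light chains, Myl3 stood at 4784.2 CPM in R403Q-EMPA mouse 1, against 4212 to 4288 CPM.

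The other 5 values were of the atrial light chains. In WT-CD mouse 5, Myl4 stood at 120.79 CPM (others 3.26 to 26.8) and Myl7 at 108.18 CPM (others 1.66 to 24.1). In R403Q-CD mouse 2, Myl4 stood at 338.93 CPM (others 2.80 to 73.4) and Myl7 at 180.24 CPM (others 0.262 to 70.3). In R403Q-EMPA mouse 2, Myl7 stood at 12.313 CPM (others 0.146 to 2.02).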

How the results depend on the processing

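No paired analysis was possible because the labels give no replicate number that pairs mice 1 to 1; they give cages, shared by up to 4 mice, and cage was used as a factor within each diet. Members called by genotype averaged over both diets numbered 1, against 2 with DESeq2, 0 without a filter on low counts, 0 with limma, 0 without the 9 mice with at least 1 CPM of Sln (an alternative chosen after seeing the data), and 0 to 1 when 1 mouse was left out. The call of Myh6 held without WT-EMPA mouse 3, R403Q-CD mouse 1, 2, 3, 6, or 7, or R403Q-EMPA mouse 4, and was lost without any other. Without WT-EMPA mouse 2 the member called was Myh7 in its place. By diet 1 member was called, against 0 without the 9 mice and 1 to 2 when 1 mouse was left out, 2 without R403Q-CD mouse 2. In WT-EMPA against WT-CD, DESeq2 called 1 and edgeR 0. Library size alone moved no count of members called; it took r of Myh6 and Myh7 to 0.392, and r of Myh6 and Myl2 to -0.0634. Without the 2 mice farthest from the median these were 0.290 and -0.647.

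Uncalled differences that changed sign were small or of the atrial chains. The Myl2 log2 fold change, R403Q-CD against WT-CD, became -0.0003 without a filter, -0.0221 with limma, and -0.0801 with cage as a factor. Without the 9 mice, Myh6 became -0.0589 in R403Q-EMPA against R403Q-CD, -0.0416 in WT-EMPA against WT-CD, and -0.0503 by diet, and Myh7b became -0.0791 by diet. In that fit Myl4 became -0.612 and Myl7 -1.71 in R403Q-CD against WT-CD, and Myl4 0.116 in R403Q-EMPA against R403Q-CD, 0.497 in R403Q-EMPA against WT-EMPA, and -0.0573 by genotype. The Myl7 to Myl2 ratio, R403Q-CD against WT-CD, became 0.869 by the median and 0.375 percentage points, and the Myh7 to Myh6 ratio in R403Q-EMPA against WT-EMPA became -0.222 percentage points. The cause was not tested. Permutation within EMPA cages could not pass, since its smallest p is 0.111.

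Leaving out 1 mouse gave these ranges of log2 values. In R403Q-CD against WT-CD they were -0.0432 to 0.0987 for Myl2, -0.621 to 2.56 for Myl4, -0.617 to 2.25 for Myl7, -1.07 to 0.670 for the Myl7 to Myl2 ratio, -0.186 to 1.38 for Myl4 to Myl3, and 0.366 to 0.485 for Myl2 to Myh6. In R403Q-EMPA against R403Q-CD they were -0.0325 to 0.138 for Myh6 and -0.112 to 0.0061 for Myl3. In WT-EMPA against WT-CD they were -0.0126 to 0.103 for Myh6, -0.173 to 0.162 for Myh7b, -2.19 to 0.125 for Myl4, -2.74 to 0.312 for Myl7, and -1.30 to 0.0227 for Myl4 to Myl3. In R403Q-EMPA against WT-EMPA they were -0.0258 to 0.0499 for Myl3, -1.51 to 0.178 for Myl4, -0.106 to 0.179 for Myh7 to Myh6, and -0.852 to 0.293 for Myl4 to Myl3. Averaged by genotype they were -0.605 to 0.989 for Myl4 and -1.42 to 0.392 for Myl7, and by diet -0.0169 to 0.158 for Myh7b.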

Other observations

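Of the remaining cell marker lists, 1 of 4 endothelial markers was called by diet, Kdr, a receptor of vascular endothelial growth factor, which rose by 0.35 on EMPA (SE 0.0785, adjusted p = 0.0217, edgeR), and 0 of 4 by genotype (2 at an unadjusted p under 0.05, 1 with DESeq2 and 0 with limma). Of all genes, 2.91% were called by diet and 10.9% by genotype. Smooth muscle markers gave 0 calls of 4 in edgeR, by genotype (0 at an unadjusted p under 0.05, 0 with DESeq2 and limma) and by diet (3 at an unadjusted p under 0.05, 1 with DESeq2 and 0 with limma). Skeletal muscle markers gave 0 calls of 5 tested by genotype or diet with edgeR, DESeq2, and limma (1 and 0 at an unadjusted p under 0.05). Of the ventricular list, which holds Myl2 and Myl3, 0 of 6 were called in edgeR by genotype (1 at an unadjusted p under 0.05, 1 with DESeq2 and 1 with limma; median log2 difference -0.11 against 0.01 over all genes) and 0 of 6 by diet (1 at an unadjusted p under 0.05, 0 with DESeq2 and limma; -0.11 against -0.01). Of 12 atrial genes tested, 2 were called by genotype averaged over both diets, where 10.9% of all genes were called, and in opposite directions: Nppa rose by 1.58 (SE 0.410, adjusted p = 0.0200) and the kinase gene Sbk3 fell by 0.90 (SE 0.283, adjusted p = 0.0463). Nppa was called on CD, at 2.73 (SE 0.585, adjusted p = 0.0248, edgeR), and not on EMPA, at 0.43 (SE 0.601, adjusted p = 0.763), where 0 of 12 atrial genes were called (1 at an unadjusted p under 0.05, 0 with DESeq2 and limma). The difference between these was -2.30 (SE 0.826, adjusted p = 0.999, unadjusted p = 0.0109), which did not pass. Without R403Q-CD mouse 2, Nppa rose by 1.80 on CD (SE 0.362, adjusted p = 0.0158, edgeR). Averaged over both diets it then rose by 1.11 (SE 0.260, adjusted p = 0.00966).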
